A study of Mus musculus with 6 samples.

Results

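The miR-181 family was followed in exosomes of RAW264.7 cells, a mouse macrophage cell line (wild type), in 3 M0-exo and 3 M2-exo libraries. The 4 members, mmu-miR-181a-5p, mmu-miR-181b-5p, mmu-miR-181c-5p and mmu-miR-181d-5p, were chosen by name, and all 4 had an entry among the 598 miRNA names of the deposited table. M0-exo came from cells that were cultured for 24 h with no cytokine. M2-exo came from cells kept for 24 h with 20 ng/mL of both IL-4 and IL-13, and in both groups the medium was then exchanged for one free of serum before exosomes were collected. All 6 libraries carried the same batch label. No source used here states whether the replicates were separate cultures, so the spread among these samples, which the tests rest on, may be technical. The main edgeR test below took the variance of each miRNA from a trend over miRNAs of similar level, not from its own replicates. The exact permutation tests used each miRNA's own values.

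A miRNA is cut from an RNA hairpin, and either strand of the resulting duplex, the 5p or the 3p arm, can be loaded into Argonaute proteins. Bases 2 to 8, the seed, lead its pairing with target mRNAs, so miRNAs with the same seed are grouped as a family. The miR-181 family is best known from lymphocyte development, where miR-181a tunes the sensitivity of the T cell receptor in the thymus, and it is also abundant in brain and studied in myeloid cells and inflammation. The question put to these data was whether the M2 stimulus went with a different amount or a different mixture of the family in exosomes.

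The members are shown here to make clear how little separates them, with the seed in capitals and written 5′ to 3′ as in the deposited table.
miR-181a-5p: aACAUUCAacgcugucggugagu
miR-181b-5p: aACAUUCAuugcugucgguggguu
miR-181c-5p: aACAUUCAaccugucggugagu
miR-181d-5p: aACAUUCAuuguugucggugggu
All 4 had the seed ACAUUCA, and no other of the 598 names had it. Counted from 1 at the 5′ end, miR-181b-5p differs from miR-181a-5p by A9U, C10U and A21G and by a further base at the 3′ end. miR-181c-5p lacks the base G11 of miR-181a-5p and otherwise has the same sequence. miR-181d-5p differs from miR-181b-5p by the single substitution C12U and is 1 base shorter. All 4 sequences were identical to those of RefSeq on GRCm38.p6.

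The 6 hairpins lie as 3 pairs in the mouse genome. In the GENCODE M21 annotation of GRCm38, Mir181a-1 (chr1:137966455-137966541) and Mir181b-1 (chr1:137966639-137966718) are 97 bases apart on the plus strand, in an intron of the noncoding gene Gm4258. Mir181b-1 and the end of Mir181a-1 also overlap exon 1 of the long noncoding RNA A430106G13Rik on the same strand. Mir181a-2 (chr2:38852735-38852810) and Mir181b-2 (chr2:38853830-38853918) are 1019 bases apart on the plus strand, opposite to an intron of Nr6a1, which encodes an orphan nuclear receptor. Mir181c (chr8:84178873-84178961) and Mir181d (chr8:84178716-84178787) are 85 bases apart on the minus strand, in an intron of Nanos3, a gene of germ cell development. miR-181a-5p can come from either of 2 hairpins, as can miR-181b-5p. Their mature sequences alone thus do not separate the chromosome 1 pair from the chromosome 2 pair. The entries per precursor, which differ for miR-181b-5p, are given below. The submitters' processing notes name mm39, so these positions are those of the annotation and not of the deposited file.

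Library depth ran from 860204 to 1453348 counts over the 598 names, of which the let-7 family with miR-98 took from 74.9% to 77.9%. Where a library shows 0 counts, up to 3 counts remain possible, which is worth 2.06 to 3.49 CPM (counts per 1000000 counts) and covers counting error only. Replicates were further apart than counting noise allows (chi-square per degree of freedom from 7.28 to 29.6), so none was treated as a repeated library. Of the myeloid markers miR-223-3p, miR-142a-3p, miR-142a-5p, miR-155-5p and miR-21a-5p, all 5 had counts in every library, and their summed level lay between 1270 and 1772 CPM in M0-exo and between 1235 and 1497 CPM in M2-exo. The serum or red cell markers miR-451a and miR-486a-5p summed to between 55.1 and 110.2 CPM in M0-exo and between 70.7 and 128.8 CPM in M2-exo, and miR-144-3p had no entry. The lymphocyte marker miR-150-5p, of interest because lymphocytes are rich in miR-181, was counted 40, 0 and 0 times in M0-exo replicates 1, 2 and 3 and 4, 9 and 9 times in M2-exo. The stromal miR-143-3p and miR-199a-3p summed to between 18.4 and 23.7 CPM in M0-exo and between 31.2 and 74.3 CPM in M2-exo, with miR-145a-5p and miR-214-3p without an entry. The liver miRNA miR-122-5p lay between 40.3 and 54.8 CPM in M0-exo and between 128.3 and 2497 CPM in M2-exo. In both of these lists M2-exo lay wholly above M0-exo. The share of all miRNAs that did so on this scale is not given here, so how unusual this is cannot be told. M2-exo replicate 3 had the most counts of miR-122-5p (2184) and of the stromal miRNAs. These CPM were scaled by TMM, which estimates from the bulk of the miRNAs how much of each library's total to count. Whether any of these marker miRNAs came from a source other than the RAW264.7 cells was not tested. Nor was the part that such a source would have in the miR-181 values.

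The family was made up almost wholly of miR-181a-5p and miR-181b-5p. miR-181a-5p had 7599 counts in all and ranked 41 of 598 by total, and miR-181b-5p had 5078 and ranked 50. miR-181d-5p had 8 counts in all and miR-181c-5p had 7. Together the 4 members took 0.207%, 0.221% and 0.211% of the counts in M0-exo replicates 1, 2 and 3, and 0.191%, 0.186% and 0.197% in M2-exo. Every M2-exo library was thus below every M0-exo library as a share of the total. Against the counts outside the let-7 family, the members took 0.884% ± 0.0176 (SD, n = 3) in M0-exo, against 0.847% ± 0.0554 in M2-exo, and the groups overlapped. On TMM-scaled CPM the sum was 1974 ± 56.0 in M0-exo, against 2070 ± 136.1 in M2-exo, also with overlap but with the higher mean in M2-exo.

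The most abundant member, miR-181a-5p, had 1766, 1588 and 1091 counts in M0-exo replicates 1, 2 and 3, against 1028, 964 and 1162 in the M2-exo replicates. After TMM scaling these were 1131, 1268 and 1173 CPM in M0-exo, against 1203, 1156 and 1329 CPM in M2-exo. The lowest value was in M0-exo and the highest in M2-exo, and the groups overlapped. The group means were 1191 ± 70.4 CPM and 1229 ± 89.4 CPM (SD, n = 3 each). The log2 fold change of M2-exo over M0-exo was 0.05 ± 0.12 (SE), with a 95% interval from -0.19 to 0.28 and an adjusted p = 0.873 from edgeR's quasi-likelihood fit of all 598 miRNAs. The two-sided exact permutation test on CPM gave p = 0.6. With TMM scaling the interval leaves out a change of 0.5 on the log2 scale in either direction, as it does with upper-quartile scaling (-0.14 to 0.44). The width of the TMM interval rests on the variance of miRNAs at a similar level, not on the replicate spread of miR-181a-5p itself.

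For miR-181b-5p, the M0-exo libraries held 1234, 961 and 733 counts and the M2-exo libraries 765, 635 and 750. After TMM scaling these were 790, 767 and 788 CPM in M0-exo, against 896, 761 and 858 CPM in M2-exo. The M0-exo libraries lay close together, with M2-exo replicate 2 below them and the other M2-exo libraries above. The group means were 782 ± 12.6 CPM and 838 ± 69.3 CPM (SD, n = 3 each). The log2 fold change was 0.10 ± 0.13 (SE), with a 95% interval from -0.16 to 0.36 and an adjusted p = 0.710 from edgeR. The two-sided exact permutation test gave p = 0.4. With TMM scaling this interval also leaves out 0.5 in either direction, but with upper-quartile scaling it ran from -0.099 to 0.51 and included it. The width of the TMM interval again rests on the variance of miRNAs at a similar level, not on the replicates of miR-181b-5p alone. Without M2-exo replicate 3, the library with the most miR-122-5p, the log2 fold change was -0.014 for miR-181a-5p and 0.083 for miR-181b-5p.

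**Figure D1:**
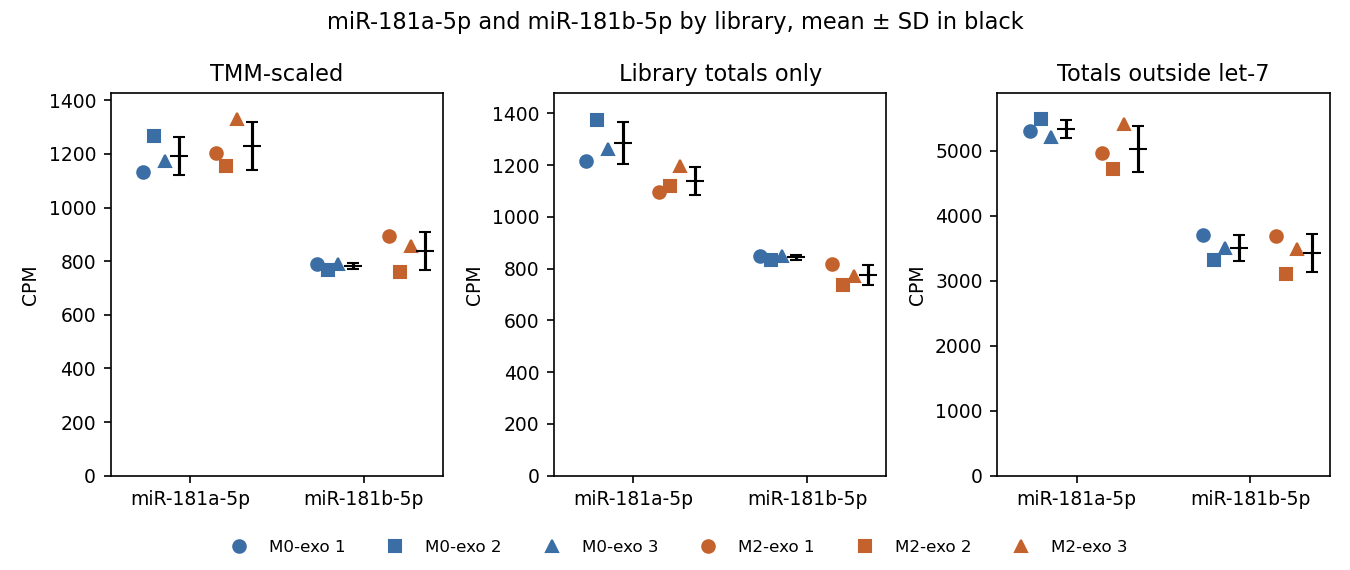
CPM of miR-181a-5p and miR-181b-5p in each library (points, with the symbol giving the replicate) on 3 scales, TMM-scaled, divided by library totals and divided by totals outside the let-7 family, with group mean ± SD in black (n = 3 each). The groups separate, with M2-exo lower, when library totals are used, and overlap on the other scales.

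The direction of both members turned with the scaling. The TMM factors lay between 1.07 and 1.08 in the M0-exo libraries and between 0.90 and 0.97 in the M2-exo libraries, so the scaling itself differed between the groups. With library totals alone, the log2 fold change was -0.17 for miR-181a-5p and -0.12 for miR-181b-5p, while the median over the 241 miRNAs with a mean of at least 10 counts moved from -0.01 to -0.22. With totals outside the let-7 family, they were -0.08 and -0.03 beside a median of -0.13. Upper-quartile scaling moved them the other way, to 0.15 and 0.21, beside a median of 0.09. Relative to the median of each of these 4 scalings, both members stood slightly above the bulk of miRNAs. On library totals miR-181a-5p was at 1215, 1374 and 1264 CPM in M0-exo, against 1097, 1121 and 1198 CPM in M2-exo, without overlap. On the same scale miR-181b-5p was at 849, 832 and 849 CPM in M0-exo, against 816, 738 and 773 CPM in M2-exo, also without overlap. The exact permutation test gave p = 0.1 for each, the smallest that 3 against 3 allows, and M2-exo lay wholly below M0-exo on that scale for 14.0% of all 598 miRNAs.

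A miRNA was called where its log2 fold change was at or beyond 0.5 in either direction with an unadjusted p-value below 0.05. Of the 4 members, 0 were called by edgeR, 0 had an unadjusted p-value below 0.05, and DESeq2 and limma also called 0, against 10% of the 598 miRNAs called by edgeR. At an adjusted p-value below 0.05 it was again 0 of 4, against 8.86% of the 598. A count of 0 among 4 is near these background shares. The median log2 fold change of the pair with a mean of at least 10 counts was 0.07, beside -0.01 over the 241 miRNAs with that mean. Of those 241 miRNAs, edgeR called 52. Neither of this pair was called in any of 18 alternative fits.

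**Figure D2:**
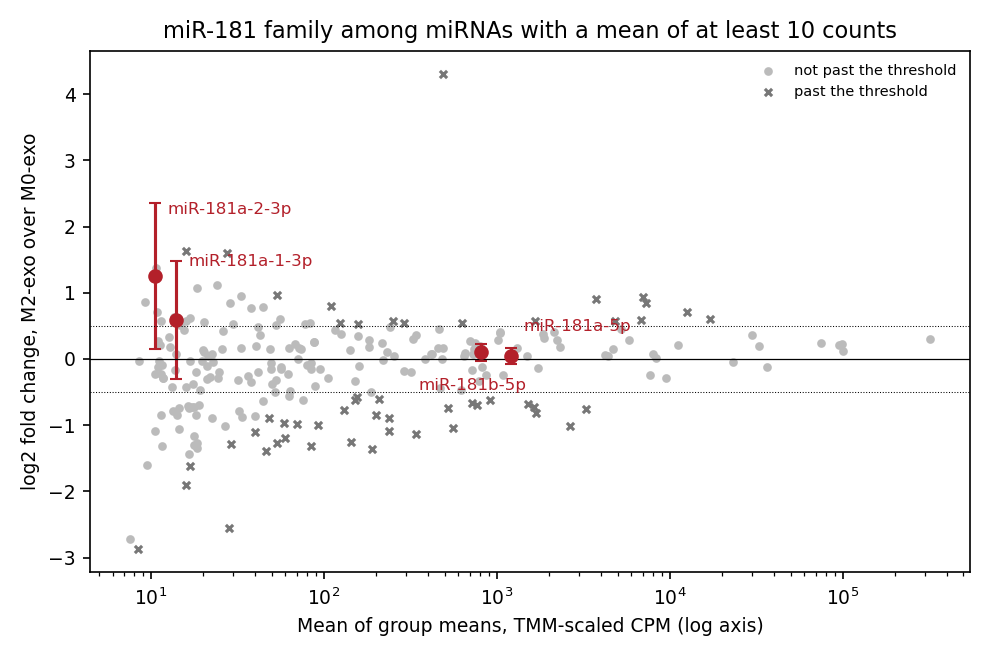
Log2 fold change, M2-exo over M0-exo (vertical axis), against the mean of the group means in TMM-scaled CPM (horizontal log axis) for the 241 miRNAs with a mean of at least 10 counts, with miR-181 miRNAs in red and bars of 1 standard error. miR-181a-5p (0.05) and miR-181b-5p (0.10) lie near 0 with short bars, while miR-181a-1-3p (0.59) and miR-181a-2-3p (1.25) have standard errors of 0.89 and 1.10.

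**Figure D3:**
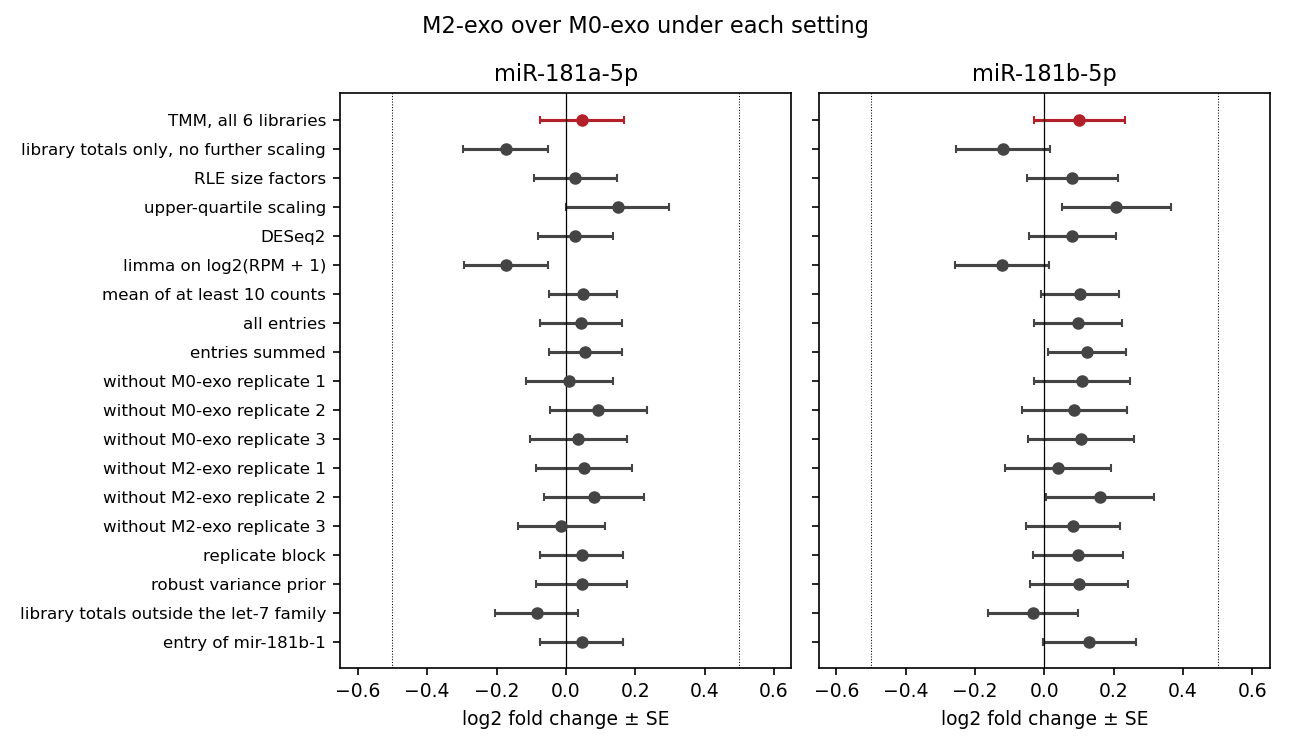
Log2 fold change ± standard error (horizontal axis) of miR-181a-5p and miR-181b-5p in each fit named on the vertical axis, with the fit on all 6 libraries and TMM scaling in red and the threshold of 0.5 dotted. All values lie between -0.17 and 0.21, and the fits without scaling beyond a total lie left of 0, as does miR-181a-5p without M2-exo replicate 3 (-0.014).

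The mixture of members does not depend on the scaling, since it is a ratio within each library. miR-181a-5p made up 58.7%, 62.3% and 59.8% of the family's 5p counts in M0-exo replicates 1, 2 and 3 and 57.3%, 60.1% and 60.7% in M2-exo. The group means were 60.3% ± 1.84 and 59.4% ± 1.83 (SD, n = 3 each), so they differed by less than the spread between replicates. miR-181a-5p outnumbered miR-181b-5p in every library, by 1.43, 1.65 and 1.49 times in M0-exo and by 1.34, 1.52 and 1.55 times in M2-exo. The pair are 23 and 24 bases long, and a read counts a whole miRNA.

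The deposited table counts a miRNA for each precursor that it can come from. For miR-181a-5p the entries of mir-181a-1 and mir-181a-2 were identical in every library. For miR-181b-5p they were not, and the entry of mir-181b-2, used above, exceeded that of mir-181b-1 in every library. The hairpins around each mature sequence (capitals) are printed with 2 bases before and 4 after it, from RefSeq on GRCm38.p6, to show how far each pair of hairpins shares sequence beyond it.
Mir181a-1: ugAACAUUCAACGCUGUCGGUGAGUuugg
Mir181a-2: ggAACAUUCAACGCUGUCGGUGAGUuugg
Mir181b-1: ucAACAUUCAUUGCUGUCGGUGGGUUgaac
Mir181b-2: ucAACAUUCAUUGCUGUCGGUGGGUUugaa
The miR-181a hairpins share the 4 bases that follow the mature sequence, and the miR-181b hairpins share 0. The excess in the mir-181b-2 entry was 114, 104 and 69 counts in M0-exo replicates 1, 2 and 3 and 58, 43 and 69 counts in M2-exo. As a share of that entry it was 9.24%, 10.8% and 9.41% in M0-exo, against 7.58%, 6.77% and 9.20% in M2-exo. Every M2-exo library was below every M0-exo library, but the nearest, 9.20% (Wilson 95% interval 7.33% to 11.5%) and 9.24% (7.75% to 11.0%), were within counting error. The means were 9.82% ± 0.868 and 7.85% ± 1.24 (SD, n = 3 each, two-sided exact permutation p = 0.1, the smallest possible), and this measure was chosen after its values were seen. With the entry of mir-181b-1 instead, the log2 fold change of miR-181b-5p was 0.13 (adjusted p = 0.610 from edgeR).

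**Figure D4:**
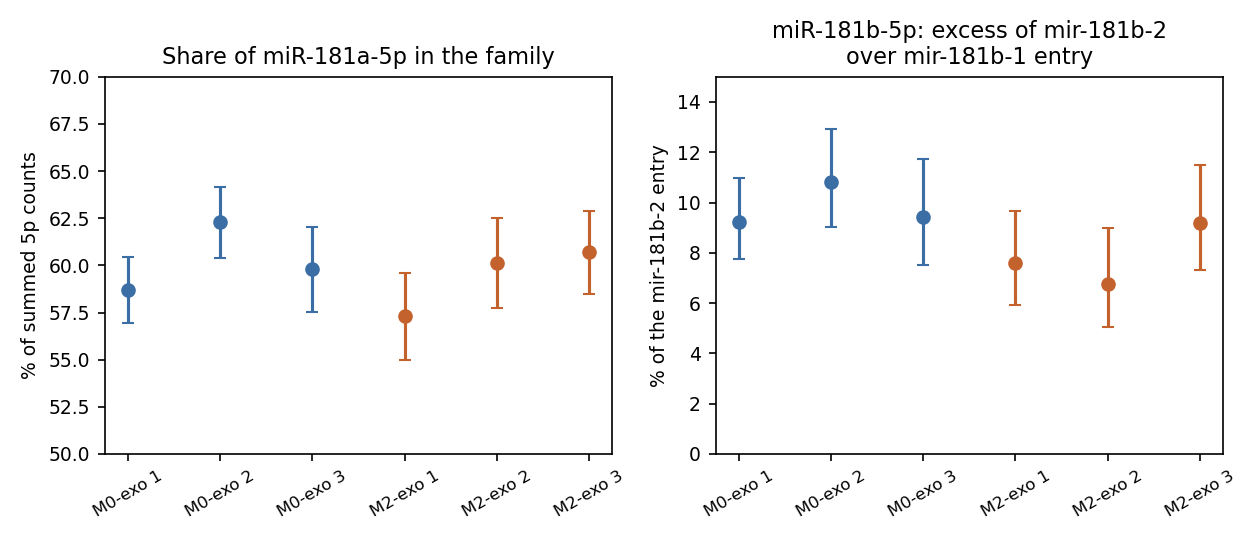
Left, miR-181a-5p as a percentage of the family's 5p counts in each library. Right, the excess of the mir-181b-2 entry of miR-181b-5p over the mir-181b-1 entry, as a percentage of the former. Bars are Wilson 95% intervals of counting error. The shares on the left overlap between groups, and on the right the M2-exo libraries run from 6.77% to 9.20% and the M0-exo libraries from 9.24% to 10.8%.

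miR-181c-5p and miR-181d-5p, from the chromosome 8 pair, were at the limit of detection. In M0-exo replicates 1, 2 and 3 miR-181c-5p was counted 6, 0 and 0 times, and in M2-exo 1, 0 and 0 times. Its pooled M2-exo to M0-exo ratio in CPM was 0.209, with an exact 95% counting interval of 0.00455 to 1.72. For miR-181d-5p the libraries held 2, 0 and 0 counts in M0-exo, against 0, 4 and 2 in M2-exo, a pooled ratio of 3.76 (exact 95% counting interval 0.673 to 38.1). These intervals pool the libraries of a group and leave out the spread between replicates. Both intervals include 1, so a difference was not detectable at this depth, and the adjusted p-values from edgeR were 0.820 and 0.731. Single libraries moved these ratios. That of miR-181d-5p ran from 1.82 without M2-exo replicate 2 to 5.69 without M2-exo replicate 1, and was 2.51 without M0-exo replicate 2. That of miR-181c-5p ran from 0.140 without M0-exo replicate 2 to 0.322 without M2-exo replicate 3. Without M2-exo replicate 1 miR-181c-5p had no count left in M2-exo, and without M0-exo replicate 1 neither had one left in M0-exo. miR-181d-5p stood at 0.158% of the count of miR-181b-5p, from which it differs by C12U, and miR-181c-5p at 0.0921% of that of miR-181a-5p. Reads of the abundant members with a changed or missing base at those positions cannot be told apart from these members in a count table.

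The 3p arms name their hairpin, since each has its own sequence, and 4 of the 6 had an entry. They are printed with bases 2 to 8 in capitals, because they share no seed with the 5p members.
miR-181a-1-3p: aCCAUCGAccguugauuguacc
miR-181a-2-3p: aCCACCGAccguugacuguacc
miR-181b-1-3p: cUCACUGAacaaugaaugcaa
miR-181c-3p: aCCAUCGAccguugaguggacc
miR-181a-1-3p and miR-181c-3p share bases 2 to 8 with each other. miR-181b-2-3p and miR-181d-3p had no entry in the table used here. Of the 4 arms with an entry, 0 had an unadjusted p-value below 0.05 and 0 passed the threshold in edgeR's test, which 10% of the 598 miRNAs passed, so a count of 0 among 4 is near that background.

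miR-181a-1-3p, from chromosome 1, was counted 18, 10 and 13 times in M0-exo, against 18, 11 and 14 times in M2-exo. Its level was 11.2 ± 3.01 CPM in M0-exo against 16.8 ± 4.0 CPM in M2-exo (SD, n = 3 each, TMM-scaled), with overlapping groups and a log2 fold change of 0.59 ± 0.89 (SE, adjusted p = 0.761 from edgeR). miR-181a-2-3p, from chromosome 2, was counted 8, 10 and 5 times in M0-exo, against 26, 7 and 5 times in M2-exo. M2-exo replicate 1 alone was high, and the other M2-exo libraries lay within the range of M0-exo counts. After TMM scaling M2-exo replicate 1 was at 30.4 CPM. On that scale M2-exo replicate 2, at 8.39 CPM, lay just above the highest M0-exo library, replicate 2 at 7.99 CPM. The log2 fold change was 1.25 ± 1.10 (SE, adjusted p = 0.516 from edgeR), and without M2-exo replicate 1 it was 0.20. The 3p arms of both miR-181a hairpins were thus counted in every library, at counts that overlapped. miR-181b-1-3p had 5 counts in M0-exo replicate 1 and 0 in the other 5 libraries, and 0 in the pooled M2-exo libraries allows up to 1.08 CPM. miR-181c-3p had 1 count in all, in M2-exo replicate 1.

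The 5p arm far outnumbered the 3p arm. For every count of the 2 miR-181a 3p arms together there were 67.9, 79.4 and 60.6 counts of miR-181a-5p in M0-exo replicates 1, 2 and 3 and 23.4, 53.6 and 61.2 in M2-exo. The groups overlapped, and the low value in M2-exo replicate 1 goes with its 26 counts of miR-181a-2-3p. Of these 3p counts, miR-181a-1-3p gave 18 of 26, 10 of 20 and 13 of 18 in M0-exo, against 18 of 44, 11 of 18 and 14 of 19 in M2-exo.

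**Figure D5:**
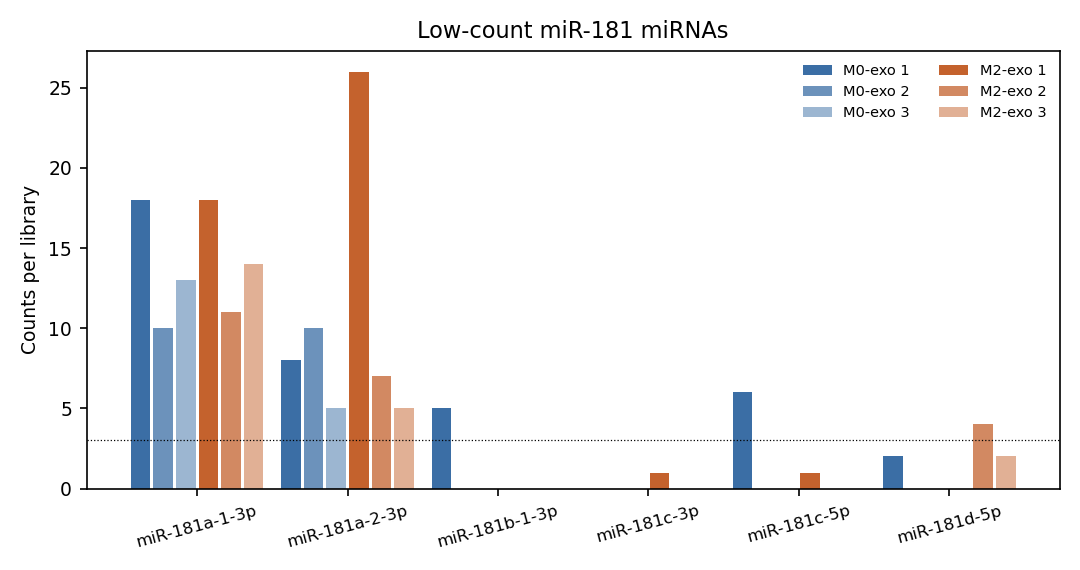
Counts per library (bars, M0-exo in blue and M2-exo in orange) of the 3p arms and of miR-181c-5p and miR-181d-5p, with the limit of 3 counts dotted. miR-181a-1-3p reaches 10 to 18 counts in every library, miR-181a-2-3p stands out in M2-exo replicate 1 with 26, and the rest have at most 6.

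Among 8 immune miRNAs listed for comparison, 2 were called higher in M2-exo and 1 lower, against 3.68% and 6.35% of the 598 miRNAs. miR-155-5p, which is induced by inflammatory stimuli, fell from 754 ± 74.2 to 368 ± 28.1 CPM (SD, n = 3 each), with a log2 fold change of -1.04 ± 0.15 (SE, adjusted p = 1.8e-10 from edgeR). miR-21a-5p, raised in many activated cells, rose by 0.55 ± 0.18 on the log2 scale (SE), but its value was under the threshold with library totals alone (0.33) and with totals outside the let-7 family (0.41). miR-223-3p, a myeloid miRNA, rose by 1.60 ± 0.58 on that scale (SE, adjusted p = 0.0583 from edgeR). miR-142a-3p and miR-142a-5p, both from a haematopoietic hairpin, had values of 0.45 and 0.22. miR-146a-5p and miR-146b-5p, which act on innate immune signalling, had -0.55 and 0.38, and miR-150-5p had -0.03. None of the last 5 was called with TMM scaling, although the adjusted p of miR-142a-3p from edgeR was 0.0408. miR-142a-3p was called with upper-quartile scaling (0.53), and miR-146a-5p with library totals alone (-0.77) and with totals outside the let-7 family (-0.68). The standard error of miR-155-5p, at a level of the same order, was close to those of miR-181a-5p and miR-181b-5p. The trend in variance sets these errors by level, so their closeness does not describe the replicates of each miRNA.

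The miRNAs that moved most like miR-181a-5p were sought among the 237 miRNAs outside the miR-181 hairpins with a mean of at least 10 counts. The measure was the root mean square difference, over the 6 libraries, between log2(CPM + 1) values each centred on its own mean. The nearest were miR-151-5p at 0.047, miR-10a-5p at 0.067 and miR-103-3p at 0.075, where the median over the 237 was 0.416. miR-181b-5p itself was at 0.093, and 10 of the 237 were nearer than that. The log2 fold changes of these neighbours were 0.04, 0.06 and 0.04, none past the threshold, at 4330 ± 413, 4123 ± 191 and 1483 ± 48.7 CPM in M0-exo (SD, n = 3 each). They were picked by likeness over the same 6 libraries, so values near that of miR-181a-5p follow from the choice.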

How the data were processed

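Exosomal small RNA of 6 samples was sequenced (NEBNext small RNA library kit). The authors deposited raw read counts per mature miRNA and precursor (638 entries) and RPM values. The RPM values were recomputed from the counts and each library's total over all entries, with differences of at most 0.005. The aligner, counting tool and miRNA release are not given in the sources used here. The submitters' processing notes name mm39. Of repeated entries, the one with most counts stood for its name (598 names), since summing would count shared reads again.

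Counts were compared with edgeR 4.0.16 in R 4.3.3 (TMM, estimateDisp, glmQLFit, glmQLFTest, no covariates) on all 598 names, with Benjamini-Hochberg adjustment. The SE is the unshrunk log2 coefficient over the root of F. The prior degrees of freedom of the main fit were infinite, so each miRNA's variance was that of the trend. Alternatives used DESeq2 1.42.0, limma 3.58.1 on log2(RPM + 1), other scalings, filters and entries, and each library left out. The scripts were tested on simulated counts with the same dispersion for every miRNA. That checks the code, and cannot show whether the p-values hold for replicates as uneven as these. Sequences and positions come from the deposited table, RefSeq (GRCm38.p6) and GENCODE M21, and all 4 members and 6 3p arms were matched by name in RefSeq. Named miRNAs were the members, their 3p arms, 8 immune miRNAs, marker lists and the 3 nearest to miR-181a-5p in pattern. Members and lists were chosen with earlier results of these data known.

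Of the other marker lists, the epithelial miR-200a-3p, miR-200c-3p and miR-203-3p summed to between 40.9 and 66.3 CPM in M0-exo and between 41.0 and 57.2 CPM in M2-exo, with miR-200b-3p and miR-141-3p without an entry.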

Additional observations from a re-analysis of the deposited data

How the results depend on the processing

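miR-181a-5p and miR-181b-5p were called in 0 of 18 alternative fits, 2 of which were chosen after seeing the data (totals outside the let-7 family and the mir-181b-1 entry). Their log2 fold changes turned negative with library totals only (-0.17 and -0.12), with limma on log2(RPM + 1) (-0.17 and -0.12) and with totals outside the let-7 family (-0.084 and -0.032). With libraries left out 1 at a time, that of miR-181a-5p ran from -0.014 (without M2-exo replicate 3) to 0.094, that of miR-181b-5p from 0.04 to 0.16, that of miR-181a-1-3p from 0.37 to 0.77 and that of miR-181a-2-3p from 0.20 to 1.64. The median over 241 miRNAs was -0.22, -0.18 and -0.13 under those scalings, against -0.01. The number of calls, 60, ran from 50 to 74. The share called higher, 36.7%, was 13.7% with library totals only, 16.2% with limma, 19.4% outside let-7 and 47.8% with upper-quartile scaling. At an adjusted p-value below 0.05 edgeR gave 53, and 33 without M0-exo replicate 2. The cause was not tested. With summed entries, which count shared reads more than once, the family took 0.276% of counts in M0-exo and 0.244% in M2-exo. Same-numbered replicates showed no shared deviation (r = -0.043, 0.016 and -0.046 over 241 miRNAs, a description across miRNAs) and so were not taken as pairs. A fit with a replicate block gave 56 calls and log2 fold changes of 0.05 for miR-181a-5p and 0.10 for miR-181b-5p. Depth limits miR-181c-5p, miR-181d-5p and the 3p arms most, since each had under 30 counts in any library.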
